A study of Mus musculus with 36 samples.

Results

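A set of 7 genes that encode proteins secreted by the mouse oocyte was followed here, chosen by name: the growth factors Gdf9, Bmp15, Bmp6 and Fgf8, and the oocyte secreted proteins Oosp1, Oosp2 and Oosp3. All 7 had a row among the 21968 genes of the count table, and all 7 were among the 12812 genes that passed the filter on low counts. The libraries were single oocytes at the germinal vesicle (GV) stage, the fully grown stage held before the first meiotic division, read by SMART-seq. By their labels, 18 oocytes came from 4 mice of genotype Drp1_KO (a to d) and 18 from 5 mice of genotype Drp1_WT (1 to 5), with 3 to 5 oocytes per mouse. Drp1 is the protein of Dnm1l, a GTPase that cuts mitochondria in fission. No source used here gives the strain, age, deleted exons or any Cre driver, so the cells in which the gene was deleted are not known.

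The oocyte and the follicle cells around it depend on each other. GDF9 and BMP15 are ligands of the TGF-beta family that, within the follicle, come mainly from the oocyte. They act on granulosa and cumulus cells through BMPR2 with a type I receptor and then through Smad proteins, and they also pair with each other as a heterodimer. BMP6 is a related ligand, and FGF8 acts with BMP15 on the sugar metabolism of cumulus cells in the mouse. The Oosp proteins are small secreted proteins related to PLAC1 of the placenta, and far less is known of what they do.

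Library depth lay between 3178509 and 7406895 counts. Levels of single oocytes are CPM, counts per 1000000 of the oocyte's own total, and levels of a mouse are CPM of its summed counts scaled with TMM factors, so all levels are relative to the other transcripts of the library and not amounts per oocyte. Some libraries stand apart from the rest or from their label. DG-10 of mouse b (Drp1_KO) had the fewest genes detected, 11350. It is given apart among single oocytes, but values per mouse and their means include it unless stated otherwise. Dnm1l lay between 144 and 274 CPM in the oocytes labelled Drp1_KO, with DG-10 at the top, inside the range of most Drp1_WT oocytes. In the Drp1_WT label 5 libraries, DN-11 to DN-15, lay between 116 and 156 CPM and the other 13 between 234 and 322 CPM. The targeted gene thus did not pass the test between the labels (log2 fold change -0.21, SE 0.19, adjusted p = 0.706 by edgeR), and it does not match the label in those 5 libraries. Mfhas1 and Eri1, the 2 genes called between genotypes, lay between 19.4 and 39.01 CPM and between 72.4 and 170.4 CPM in Drp1_KO oocytes. They stood at 20.8 and 83.7 CPM in DN-29 of mouse 5, labelled Drp1_WT, and between 1.08 and 5.47 CPM and between 32.5 and 61.7 CPM in the other Drp1_WT oocytes. Drp1_KO and Drp1_WT below therefore mean libraries with that label, and the difference of each of the 7 genes is also given without these libraries. Leaving out DN-11 to DN-15 removes every oocyte of mouse 4, so 4 Drp1_WT mice remain in that setting.

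Oosp2, Oosp1 and Oosp3 lie side by side on chromosome 19 of GRCm38. Oosp2 (ENSMUSG00000055895) is at chr19:11647279-11660559 and Oosp1 (ENSMUSG00000041857) at chr19:11667460-11691150, both on the minus strand, and Oosp3 (ENSMUSG00000055933) is at chr19:11697055-11711874 on the plus strand. The gaps are 6901 bases between Oosp2 and Oosp1 and 5905 bases between Oosp1 and Oosp3. Fgf8 (ENSMUSG00000025219) lies far from them on the same chromosome, at chr19:45736798-45742915 on the minus strand. Gdf9 (ENSMUSG00000018238) is at chr11:53431023-53437904 (plus), Bmp15 (ENSMUSG00000023279) at chrX:6314107-6320721 (minus) and Bmp6 (ENSMUSG00000039004) at chr13:38345107-38500302 (plus). These are whole gene spans of GENCODE M21, exons and introns included.

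The promoters of members that moved together across oocytes, or that belong to the TGF-beta family, are shown where RefSeq (GRCm38.p6) gave one, which was the case for 4 of the 7 genes. Each sequence is the 250 bases before the RefSeq start on the gene's strand. Capitals mark CANNTG, the E-box core that helix-loop-helix factors such as FIGLA read, and TAATTA, a core of the kind read by homeobox factors such as NOBOX. TAATTG and TATAAA were searched as well, all on both strands. Oosp1 and Oosp2 come first, from chr19:11691052-11691301 and chr19:11660560-11660809, then Bmp15 from chrX:6320725-6320974 and Bmp6 from chr13:38345466-38345715.
Oosp1: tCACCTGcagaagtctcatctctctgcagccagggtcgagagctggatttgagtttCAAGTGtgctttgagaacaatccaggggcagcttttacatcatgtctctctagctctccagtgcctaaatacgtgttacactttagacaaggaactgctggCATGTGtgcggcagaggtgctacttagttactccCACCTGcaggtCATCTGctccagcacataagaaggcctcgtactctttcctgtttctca
Oosp2: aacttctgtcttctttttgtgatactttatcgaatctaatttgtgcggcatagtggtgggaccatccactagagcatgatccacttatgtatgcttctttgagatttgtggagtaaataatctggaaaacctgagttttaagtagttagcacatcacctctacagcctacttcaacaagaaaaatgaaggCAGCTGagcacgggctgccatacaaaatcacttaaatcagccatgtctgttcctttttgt
Bmp15: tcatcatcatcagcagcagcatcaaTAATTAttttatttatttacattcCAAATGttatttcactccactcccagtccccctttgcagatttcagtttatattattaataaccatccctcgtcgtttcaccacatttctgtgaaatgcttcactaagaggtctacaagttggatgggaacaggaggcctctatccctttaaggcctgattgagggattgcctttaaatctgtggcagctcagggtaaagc
Bmp6: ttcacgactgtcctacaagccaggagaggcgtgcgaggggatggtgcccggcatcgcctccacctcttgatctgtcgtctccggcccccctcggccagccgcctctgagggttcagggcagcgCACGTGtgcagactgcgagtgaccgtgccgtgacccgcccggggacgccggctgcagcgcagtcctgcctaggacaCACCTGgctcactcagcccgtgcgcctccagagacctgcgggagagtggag
The Oosp1 window held 5 CANNTG matches, the Bmp6 window 2, and the Oosp2 and Bmp15 windows 1 each. Among 32851 mouse promoter windows of the same length, 66.2% held at least 1 CANNTG, with a median of 1. The Bmp15 window held the only TAATTA of these 4 windows, at position -225 from the start site, and a TATAAA on the strand opposite to the gene. TAATTA was found in 4.84% of all windows, TATAAA in 12.4% and TAATTG in 7.17%, and none of the 4 windows held TAATTG. The Oosp1 and Bmp6 windows reach into the longer GENCODE gene models. A match is a run of letters and not a measured binding site.

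The members covered a wide range of levels, and Gdf9 and the Oosp genes were among the most abundant transcripts of the oocyte. On the scale of CPM per kilobase of exon, which allows levels to be set against each other between genes, Gdf9 ranked 14th, Oosp1 16th, Oosp3 24th, Oosp2 34th and Bmp15 57th of 21876 genes in Drp1_WT oocytes. Fgf8 ranked 625th and Bmp6 4044th. Gdf9 averaged 2057 ± 288 CPM per kb in Drp1_KO mice and 2244 ± 157 in Drp1_WT mice (SD, n = 4 and 5), and Oosp1 averaged 2744 ± 807 in Drp1_KO mice and 2128 ± 434 in Drp1_WT mice. These neighbours in the order could not be separated: Gdf9 was above Oosp1 in 18 of 35 oocytes and in 4 of 9 mice. Below them, Oosp3 stood at 1888 ± 601 CPM per kb in Drp1_KO mice and 1639 ± 430 in Drp1_WT mice, and Oosp2 at 1441 ± 495 in Drp1_KO mice and 1268 ± 334 in Drp1_WT mice. The order within the cluster was steady, since Oosp1 exceeded Oosp3 in 35 of 35 oocytes and Oosp3 exceeded Oosp2 in 34 of 35. Bmp15 followed with 824 ± 112 CPM per kb in Drp1_KO mice and 867 ± 85.9 in Drp1_WT mice, below Oosp2 in 28 of 35 oocytes. Fgf8, at 84.95 ± 4.90 CPM per kb in Drp1_KO mice and 98.3 ± 8.18 in Drp1_WT mice, and Bmp6, at 8.02 ± 0.733 in Drp1_KO mice and 9.47 ± 1.75 in Drp1_WT mice, came last, with Fgf8 below Bmp15 and above Bmp6 in 35 of 35 oocytes. DG-10 is not among these 35.

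**Figure D1:**
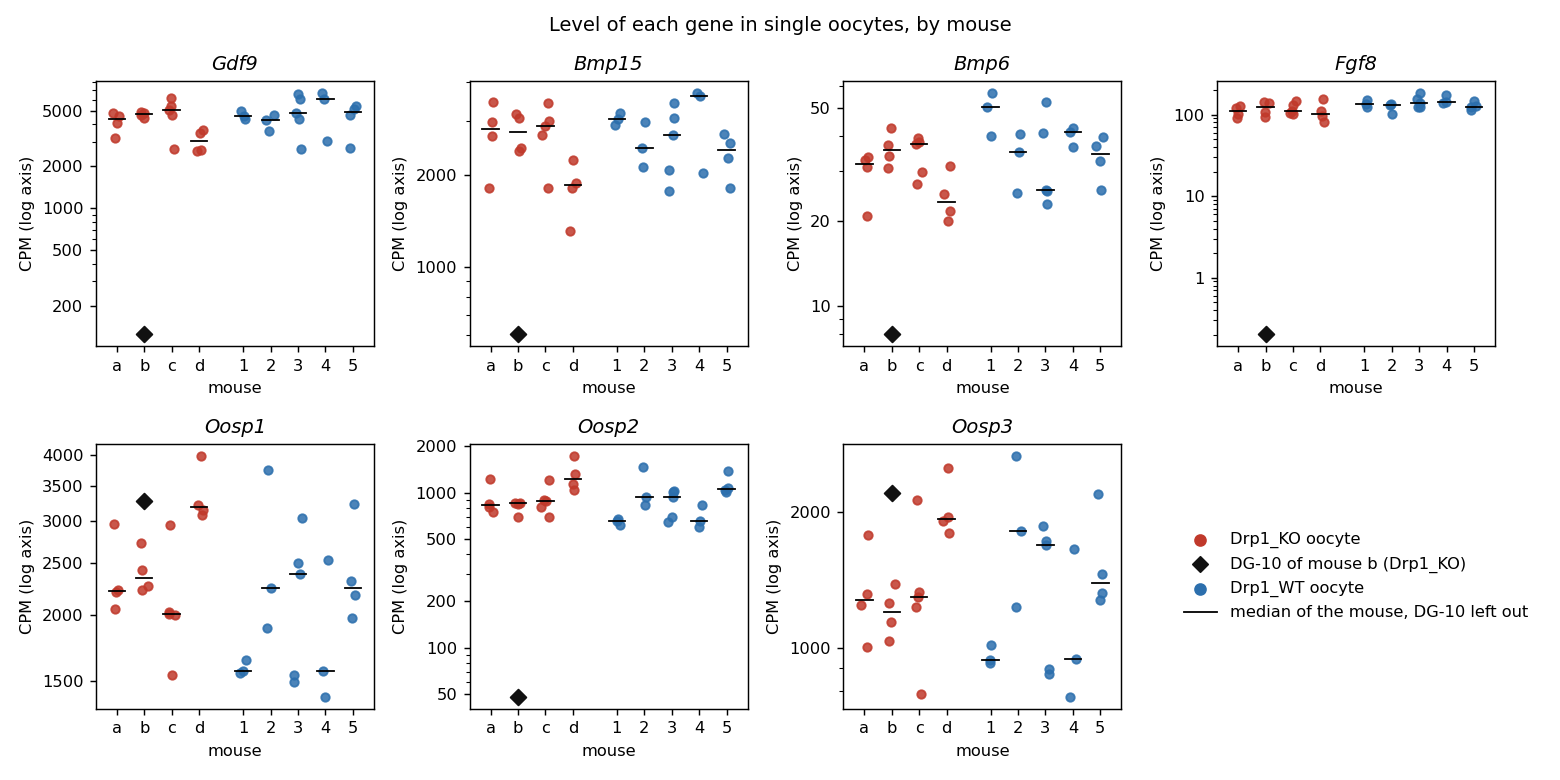
Level of each of the 7 genes in single oocytes (CPM, log axis), by mouse, with Drp1_KO mice a to d left of Drp1_WT mice 1 to 5; lines are medians of the mouse without DG-10. Oocytes of both genotypes overlap for every gene, and DG-10 lies below all others for Gdf9, Bmp15, Bmp6, Fgf8 and Oosp2 but not for Oosp1 and Oosp3.

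Gdf9, whose loss in the mouse halts follicles at an early stage, did not pass the test between genotypes. Single oocytes held 2590, 4601 and 6188 CPM (lowest, median and highest of 17 Drp1_KO oocytes), 126 CPM in DG-10, and 2652, 4678 and 6676 CPM in 18 Drp1_WT oocytes. Per mouse, Gdf9 stood at 4263, 4117, 4877 and 3453 CPM in mice a, b, c and d of Drp1_KO, against 4529, 4068, 4771, 4904 and 4513 CPM in mice 1 to 5 of Drp1_WT. Mouse d was the lowest of the 9 mice, and the other 3 Drp1_KO mice lay within the range of Drp1_WT. The means were 4177 ± 585 CPM in Drp1_KO mice and 4557 ± 319 CPM in Drp1_WT mice (SD, n = 4 and 5), a log2 fold change of -0.13 (SE 0.12, 95% interval -0.38 to 0.13) with an adjusted p of 0.704 by edgeR's quasi-likelihood test. Without DG-10 the log2 fold change was -0.09, and without DG-10, DN-11 to DN-15 and DN-29 it was 0.02. Its sign thus rests on those libraries, which include every oocyte of mouse 4.

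Bmp15, the X-linked partner of Gdf9 in the heterodimer, did not pass the test either. Single oocytes held 1314, 2683 and 3452 CPM (17 Drp1_KO oocytes), 606 CPM in DG-10, and 1768, 2707 and 3693 CPM (18 Drp1_WT oocytes). Per mouse the values were 2751, 2515, 2778 and 2038 CPM in mice a to d of Drp1_KO and 2951, 2464, 2551, 2914 and 2382 CPM in mice 1 to 5 of Drp1_WT. Mouse d was again the lowest of all, and the other Drp1_KO mice lay among the Drp1_WT mice. The means of 2520 ± 343 CPM in Drp1_KO mice and 2652 ± 263 CPM in Drp1_WT mice gave a log2 fold change of -0.07 (SE 0.12, 95% interval -0.34 to 0.19, adjusted p = 0.833 by edgeR). It was -0.05 without DG-10 and 0.03 without DG-10, DN-11 to DN-15 and DN-29.

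Over the 35 single oocytes other than DG-10, the ratio of the 2 partners covered a narrower fold range than either gene. Gdf9 over Bmp15, in CPM per kb, lay between 2.01 and 3.01 (median 2.64) in 17 Drp1_KO oocytes and between 2.24 and 3.23 (median 2.58) in 18 Drp1_WT oocytes. Over mice the log2 ratio was 1.32 ± 0.08 in Drp1_KO and 1.37 ± 0.13 in Drp1_WT (SD, n = 4 and 5), a difference smaller than the SD of either group, and no test was run on ratios. The ratio in DG-10 was 0.313, outside the range of all 35 other oocytes.

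Bmp6 and Fgf8, the less abundant growth factors, were lower on average in Drp1_KO mice, but neither passed the test. Bmp6 held 19.9, 31.3 and 42.5 CPM in 17 Drp1_KO oocytes, 7.97 CPM in DG-10, and 23.0, 38.1 and 56.5 CPM in 18 Drp1_WT oocytes. Per mouse it stood at 31.2, 33.1, 33.5 and 27.3 CPM in mice a to d and at 48.4, 31.6, 32.7, 37.7 and 34.3 CPM in mice 1 to 5. Mice a and d lay below every Drp1_WT mouse, mice b and c did not, and mouse 1 was the highest by a wide margin. The means were 31.3 ± 2.86 CPM in Drp1_KO mice and 36.9 ± 6.81 CPM in Drp1_WT mice, with a log2 fold change of -0.24 (SE 0.14, 95% interval -0.54 to 0.07, adjusted p = 0.567 by edgeR). It was -0.21 without DG-10, -0.14 without DG-10, DN-11 to DN-15 and DN-29, and -0.12 without mouse 1.

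Fgf8 had the smallest unadjusted p of the 7 genes. It held 80.5, 109 and 154 CPM in 17 Drp1_KO oocytes, 0.204 CPM in DG-10, and 102, 136 and 183 CPM in 18 Drp1_WT oocytes. Per mouse it stood at 114, 106, 116 and 122 CPM in mice a to d, against 131, 115, 142, 143 and 132 CPM in mice 1 to 5. Mice a and b lay below all Drp1_WT mice, while mice c and d lay above mouse 2. Without DG-10, mouse b was at 119.9 CPM and mouse 2 at 116.2 CPM, and mouse a alone lay below all Drp1_WT mice. The means were 115 ± 6.62 CPM in Drp1_KO mice and 133 ± 11.05 CPM in Drp1_WT mice, with a log2 fold change of -0.21 (SE 0.10, 95% interval -0.43 to 0.01) and, by edgeR, an unadjusted p of 0.0560 and an adjusted p of 0.522. Without DG-10 the change was -0.17 (adjusted p = 0.604 by edgeR), without DG-10, DN-11 to DN-15 and DN-29 it was -0.16, and within the libraries whose titles carry the numbers 1 to 15, which leave out mouse d and mouse 5, it was -0.24 (adjusted p = 0.486 by edgeR).

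Oosp1, Oosp2 and Oosp3 were higher on average in Drp1_KO mice, and none of them passed the test. Oosp1 held 1544, 2269 and 3985 CPM in 17 Drp1_KO oocytes, 3273 CPM in DG-10, and 1403, 2077 and 3741 CPM in 18 Drp1_WT oocytes. Per mouse it stood at 2307, 2649, 1948 and 3763 CPM in mice a to d, against 1547, 2415, 2096, 1748 and 2534 CPM in mice 1 to 5. Mice b and d lay above every Drp1_WT mouse, and mouse c lay below mice 2, 3 and 5; without DG-10, mouse b was at 2363 CPM and mouse d alone lay above the Drp1_WT mice, then at 1558 to 2553 CPM. The means were 2667 ± 785 CPM in Drp1_KO mice and 2068 ± 422 CPM in Drp1_WT mice, a log2 fold change of 0.37 (SE 0.19, 95% interval -0.05 to 0.78, unadjusted p = 0.0784 and adjusted p = 0.535 by edgeR). It came to 0.32 without DG-10, 0.15 without DG-10, DN-11 to DN-15 and DN-29, and 0.15 without mouse d.

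Oosp2 held 693, 865 and 1735 CPM in 17 Drp1_KO oocytes, 48.2 CPM in DG-10, and 605, 889 and 1476 CPM in 18 Drp1_WT oocytes. Per mouse it stood at 875, 720, 842 and 1471 CPM in mice a to d and at 637, 1002, 830, 662 and 1168 CPM in mice 1 to 5. Mouse d alone lay above the Drp1_WT mice. The means were 977 ± 336 CPM in Drp1_KO mice and 860 ± 226 CPM in Drp1_WT mice (SD, n = 4 and 5), with a log2 fold change of 0.18 (SE 0.22, 95% interval -0.29 to 0.66, adjusted p = 0.761 by edgeR). It was 0.21 without DG-10, 0.03 without DG-10, DN-11 to DN-15 and DN-29, and -0.08 without mouse d.

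Oosp3 held 790, 1315 and 2501 CPM in 17 Drp1_KO oocytes, 2197 CPM in DG-10, and 778, 1301 and 2663 CPM in 18 Drp1_WT oocytes. Per mouse it stood at 1283, 1418, 1228 and 2286 CPM in mice a to d and at 933, 1760, 1342, 1073 and 1637 CPM in mice 1 to 5. Mouse d was again the only Drp1_KO mouse above all Drp1_WT mice, and mouse 1 was the lowest of the 9. The means were 1554 ± 495 CPM in Drp1_KO mice and 1349 ± 354 CPM in Drp1_WT mice (SD, n = 4 and 5), with a log2 fold change of 0.20 (SE 0.22, 95% interval -0.26 to 0.67, adjusted p = 0.735 by edgeR). It was 0.14 without DG-10, -0.07 without DG-10, DN-11 to DN-15 and DN-29, and -0.04 without mouse d. The log2 ratio of Oosp3 over Oosp1, per kb, was -0.54 ± 0.11 in Drp1_KO mice and -0.39 ± 0.11 in Drp1_WT mice (SD, n = 4 and 5), a difference of -0.15 that is larger than either SD, although the mice overlapped, at -0.66 to -0.43 and -0.49 to -0.22. That of Oosp1 over Oosp2 was 0.94 ± 0.29 in Drp1_KO mice and 0.76 ± 0.11 in Drp1_WT mice, a difference of 0.18. Without DG-10 it was 0.86 ± 0.14 in Drp1_KO mice, and the difference fell to 0.10.

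**Figure D2:**
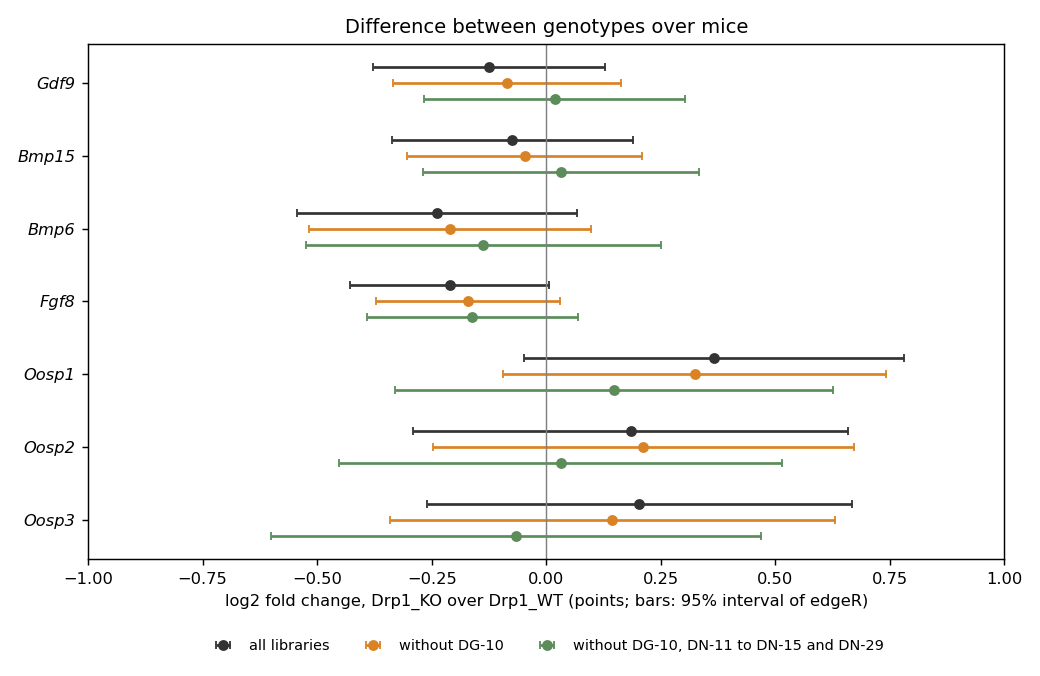
Log2 fold change, Drp1_KO over Drp1_WT, of the 7 genes over mice (points) with the 95% interval of edgeR's fit (bars), for all libraries, without DG-10, and without DG-10, DN-11 to DN-15 and DN-29. Every interval crosses 0, and the Gdf9, Bmp15 and Oosp3 points change sign in the third setting. That setting leaves out mouse 4 and so holds 4 mice of each genotype.

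Over the whole list, 0 of 7 genes passed an adjusted p of 0.05 by edgeR, with a background of 0.0156% of the 12812 genes tested, and 0 of 7 had an unadjusted p under 0.05, with a background of 9.69%. DESeq2, which called 0.336% of the genes, and limma-voom on single oocytes, which called 0.0702%, also called 0 of 7. By unadjusted p under 0.05 DESeq2 had 1 of 7, Fgf8 (11% of all genes), limma-voom 1 of 7, Oosp1 (9.92%), and edgeR without DG-10 had 0 of 7 (8.54%). The mice of the 2 genotypes overlapped for 7 of 7 genes, and 2.56% of all genes did not overlap. Of the 7 changes 3 were positive and 4 negative, with a median of -0.07 on the log2 scale, beside -0.0032 for all tested genes. With all libraries, the intervals above corresponded to 0.769-fold to 1.09-fold for Gdf9, 0.792-fold to 1.14-fold for Bmp15 and 0.967-fold to 1.72-fold for Oosp1. Without DG-10, DN-11 to DN-15 and DN-29, they were, in the same order, 0.831-fold to 1.23-fold, 0.830-fold to 1.26-fold and 0.795-fold to 1.54-fold. The range of mean changes allowed thus depended on the libraries kept. Within title numbers 1 to 15, with mice a to c against mice 1 to 4, the log2 fold changes were -0.04 for Gdf9, -0.02 for Bmp15, -0.20 for Bmp6, 0.24 for Oosp1, 0.06 for Oosp2 and 0.04 for Oosp3, none past the threshold by edgeR. Title numbers 27 to 30 hold 1 mouse of each genotype and give no such test.

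Oocytes of the same mouse differed from each other, for most genes, by more than counting error, which leaves out any noise from PCR copies. Without DG-10, the median coefficient of variation (CV) within a mouse was 17.7% for Gdf9, 20.9% for Bmp15, 17.7% for Bmp6, 14.8% for Fgf8, 23.0% for Oosp1, 21.1% for Oosp2 and 27.2% for Oosp3. Counting alone would give 0.613% for Gdf9 and 6.997% for Bmp6, the extremes of the 7 genes, and the 3 oocytes of mouse 4, with a CV of 8.25% for Bmp6, lay close to it. The 3 oocytes of mouse 1 were the most alike for 5 genes, with CVs of 3.06% for Oosp1 and 4.76% for Oosp3. Those of mouse 4 had the widest spread for Gdf9 (37.0%) and Oosp3 (41.3%).

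This spread was shared between genes. Over the 35 oocytes other than DG-10, log2(CPM + 1) of Gdf9 and Bmp15 had a Pearson correlation of 0.88. The 3 Oosp genes formed another block, with 0.90 between Oosp1 and Oosp2, 0.94 between Oosp1 and Oosp3 and 0.93 between Oosp2 and Oosp3. The blocks ran against each other: Gdf9 had -0.80 with Oosp1, -0.66 with Oosp2 and -0.78 with Oosp3, and Bmp15 had -0.76, -0.66 and -0.74. Bmp6 sided with the growth factors, at 0.55 with Gdf9 and -0.75 with Oosp1, and Fgf8 was only weakly tied to the others (0.17 with Gdf9, -0.36 with Oosp1). With each mouse's mean removed, Gdf9 and Bmp15 still had 0.88, Oosp1 and Oosp3 0.97, and Gdf9 and Oosp1 -0.81. Other pairs were weaker then: Gdf9 and Bmp6 had 0.44, and Bmp15 and Oosp2 went from -0.66 to -0.47. Bmp15 and Bmp6 went from 0.48 to 0.23. The points share a library total, so a gene that takes more of a library leaves less to others, and oocytes of 1 mouse share an animal. These are descriptions of 35 libraries.

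**Figure D3:**
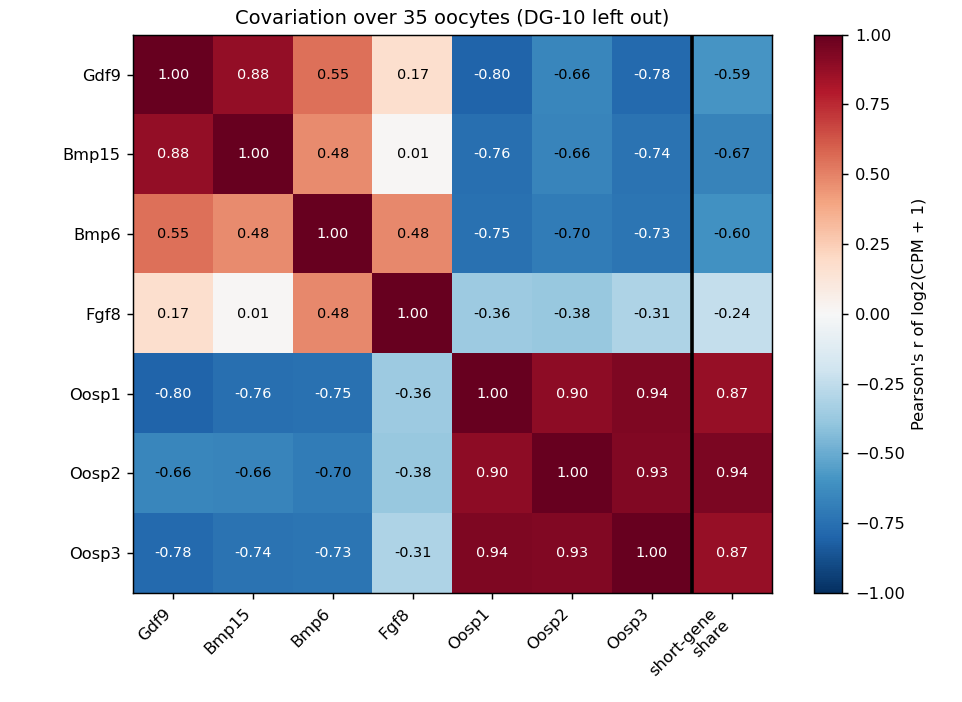
Pearson correlation of log2(CPM + 1) between the 7 genes over 35 oocytes, DG-10 left out, and in the last column with the share of each library's protein-coding counts (members left out) that falls on short genes. Gdf9 and Bmp15 (0.88) and the 3 Oosp genes (0.90 to 0.94) form 2 blocks with negative values between them.

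The length of transcripts moved with the same pattern. Of each library's counts on protein-coding genes, members left out, a share fell on 2252 genes with a longest transcript of up to 1000 nt. This share was between 5.13% and 8.12% in 17 Drp1_KO oocytes, 6.01% in DG-10, and between 4.34% and 8.11% in 18 Drp1_WT oocytes. Over 35 oocytes it had a Pearson correlation of 0.87 with Oosp1, 0.94 with Oosp2 and 0.87 with Oosp3, whose longest transcripts measure 972, 677 and 807 nt. It had -0.59 with Gdf9 and -0.67 with Bmp15, of 1793 and 3060 nt, -0.60 with Bmp6 and -0.24 with Fgf8. The median of this correlation was 0.48 over 646 tested genes of up to 1000 nt and -0.19 over 12154 longer ones. Protein-coding genes among the short ones are counted in the share itself, so the gap between these medians is in part built in. The Oosp genes, left out of the share, had the sign of the short genes. Averaged per mouse, the share was 5.98 ± 0.676% in Drp1_KO mice and 5.57 ± 0.915% in Drp1_WT mice (SD, n = 4 and 5). Mouse d, highest for the Oosp genes, had 6.99%. Mouse 5, the Drp1_WT mouse that shares title numbers 27 to 30 with mouse d, had 6.48%. The part of this share in the member levels was not tested.

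The genes most like each member over the same 35 oocytes were read from the Pearson correlation of log2(CPM + 1) with every tested gene. That these genes differ between the blocks follows from the negative values between the blocks above. For Gdf9 they were Calr (0.91) and P4hb (0.91), chaperones of the endoplasmic reticulum, and Pigs (0.90), part of the transamidase that attaches GPI anchors. For Bmp15 they were Gdf9 (0.88), Ncstn (0.87) and P4hb (0.87), and for Bmp6 they were Afg3l2 (0.87), Cc2d1a (0.87) and Smurf1 (0.86). Fgf8 had lower values, with Susd3 (0.78), Gpn2 (0.74) and Mrpl2 (0.73). Oosp1 was most like Dpy30 (0.98), a subunit of histone H3K4 methyltransferase complexes, Magoh (0.98), a subunit of the exon junction complex, and Omt2b (0.97). Oosp2 was most like Tbca, Snrpb2 and Eif1ax (0.96, 0.95 and 0.95), and Oosp3 like Med31, Lsm3 and Magohb (0.96, 0.96 and 0.96). Not all of these are short. The longest transcripts of Dpy30, Magoh, Tbca and Magohb measure 789, 692, 633 and 897 nt, under the limit of 1000 nt. Those of Omt2b, Med31, Lsm3, Snrpb2 and Eif1ax measure 1044, 1161, 2032, 2061 and 5172 nt, over it.

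**Figure D4:**
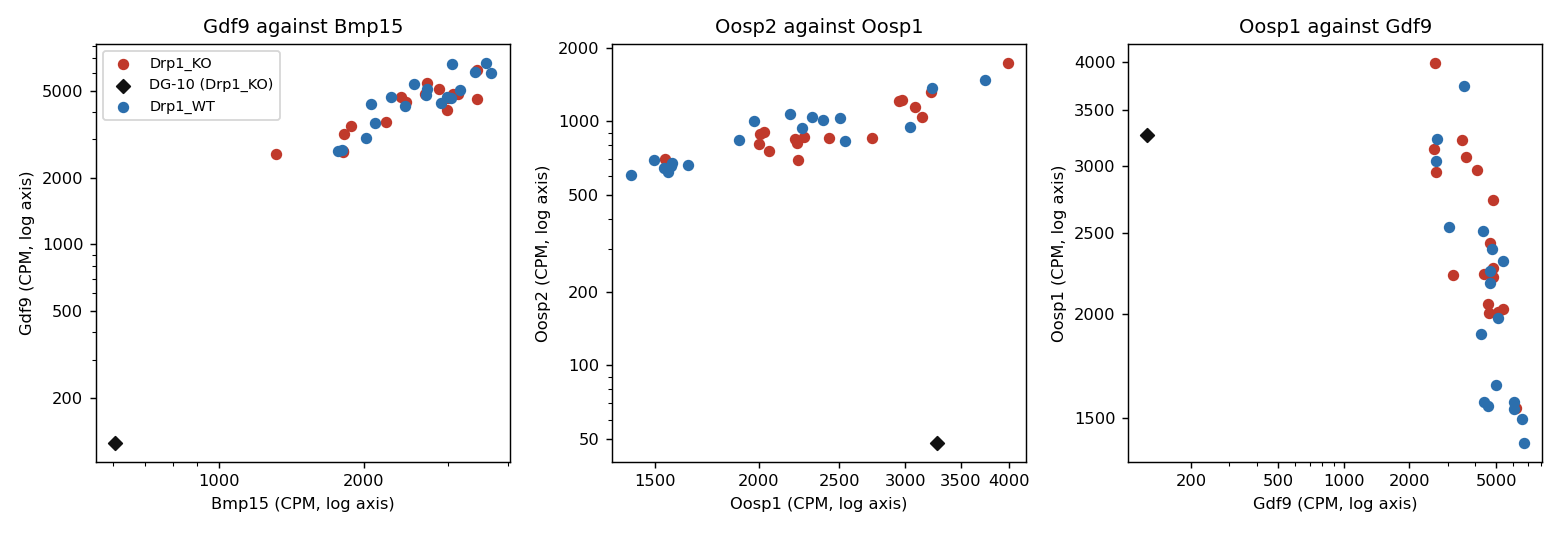
Pairs of genes in 36 single oocytes (CPM, log axes): Gdf9 against Bmp15, Oosp2 against Oosp1, and Oosp1 against Gdf9, with DG-10 as a black diamond. The 35 other oocytes lie along a band in each panel, rising in the first and second and falling in the third, and DG-10 lies far from them.

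DG-10, a single oocyte of mouse b labelled Drp1_KO, held little of the growth factor transcripts relative to its total, while Oosp1 and Oosp3 lay within the range of other oocytes. It was below all 35 other oocytes for 5 of the 7 members, Gdf9, Bmp15, Bmp6, Fgf8 and Oosp2. The background is wide, since 42.2% of all tested genes were below all other oocytes in DG-10 and 14.4% were above. With 1 such oocyte there is no test, and the intervals below are exact 95% Poisson intervals that cover counting error only.

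Gdf9 had 615 counts in DG-10, or 126 CPM, which is 2.73% (2.52 to 2.96%) of the median of the 17 other Drp1_KO oocytes. Fgf8 had 1 count, or 0.187% (0.00474 to 1.04%) of that median, the lowest share of the 7 genes. Oosp2 had 236 counts, 5.58% (4.89 to 6.33%). Bmp15, with 2964 counts, and Bmp6, with 39 counts, stood at 22.6% (21.8 to 23.4%) and 25.5% (18.1 to 34.9%). Oosp1 stood at 144% (142 to 147%) and Oosp3 at 167% (164 to 170%), inside the spread of the 17 oocytes.

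The neighbours on chromosome 19 thus differed from each other in this oocyte. Oosp1 over Oosp2, in CPM per kb, was 47.3 in DG-10, against 1.54 to 2.24 in 17 Drp1_KO oocytes and 1.37 to 2.24 in 18 Drp1_WT oocytes. Oosp3 over Oosp1 was 0.793 in DG-10 and 0.548 to 0.951 in the 35 others, so this pair kept its usual proportion. In the order of levels per kb, DG-10 placed Oosp1 (3367 CPM per kb) and Oosp3 (2670) far above Bmp15 (198), Oosp2 (71.1) and Gdf9 (61.9). With DG-10 included, the correlation of Oosp1 with Oosp2 over 36 oocytes was 0.21, and that of Oosp1 with Oosp3 was 0.94.

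**Figure D5:**
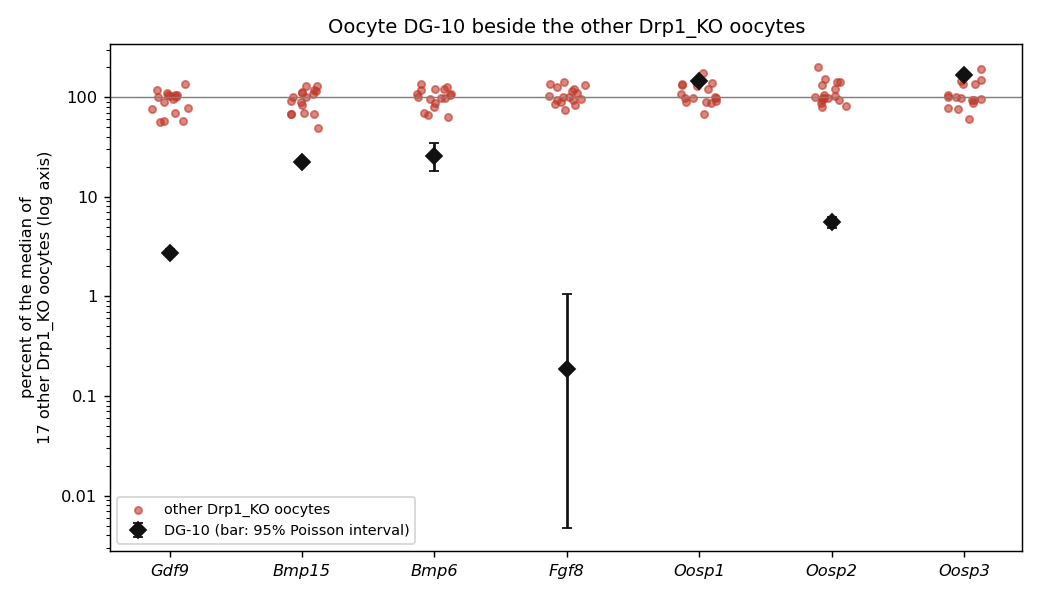
Level of the 7 genes in DG-10 (black diamonds, bars for the exact 95% Poisson interval) and in each of the 17 other Drp1_KO oocytes (red), as a percent of the median of those 17 (log axis). Oosp1 (144%) and Oosp3 (167%) lie among the other oocytes, and the remaining 5 genes lie between 0.187% and 25.5%.

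Other markers moved in DG-10 as well, and their part in the values above was not tested. Of 12 oocyte markers, 10 were below all other oocytes, beside 42.2% of all tested genes. Among them was the zona pellucida gene Zp3 at 13.5 CPM (1814 to 5882 CPM in the 35 others). Of the 12, 2 had no count, Figla and Sohlh1, which allows up to 0.613 CPM. Sohlh1 was also without a count in most other oocytes, and the other 11 markers had counts in 35 of 35. Dppa3, a maternal factor that guards DNA methylation, was above all others at 10822 CPM (2414 to 5355 CPM). The summed level of 17 genes of immune, endothelial, stromal, epithelial and red blood cells was 563 CPM in DG-10, against 33.1 to 63.03 CPM in 17 Drp1_KO oocytes and 31.2 to 78.2 CPM in 18 Drp1_WT oocytes. Most of it was the macrophage gene Lyz2, at 440 CPM against at most 0.852 CPM elsewhere, with Cd68 at 67.8 CPM and Adgre1 at 34.5 CPM. Another 9 of the 17 were at 0 in DG-10, among them Cdh5, Col1a1 and Col1a2, which had counts in 0, 9 and 7 of the 35 other oocytes. The 14 granulosa and cumulus markers summed to 152 CPM in DG-10, 83.8 to 147 CPM in 17 Drp1_KO oocytes and 96.1 to 160 CPM in 18 Drp1_WT oocytes. In DG-10, 2 of these 14 were above all other oocytes, a share near the 14.4% of all tested genes. They were Inhba (4.50 CPM, at most 3.40 CPM in the others) and Kitl (13.5 CPM, at most 11.7 CPM). Amh, Foxl2 and Slc38a3 were at 0, which was also the case in most other oocytes.

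The pathway around the growth factors was read from lists of ligands, receptors, transducers, proteases and antagonists. Of 28 other ligands of the TGF-beta family, 10 were tested, 0 passed the adjusted threshold of edgeR, and by unadjusted p under 0.05 there were 2 higher and 2 lower, beside 9.69% of all genes. Tgfb2, a ligand of the TGF-beta branch proper, had the smallest p, at 1212 ± 127 CPM in Drp1_KO mice and 900 ± 102 CPM in Drp1_WT mice (log2 fold change 0.43, SE 0.12, adjusted p = 0.471 by edgeR). Bmp5 stood at 147 ± 9.21 CPM in Drp1_KO mice and 126 ± 6.06 CPM in Drp1_WT mice (0.22, adjusted p = 0.508 by edgeR), and in DG-10 at 315 CPM, above the 99.6 to 185 CPM of the other 35 oocytes. Bmp7 and Gdf15, the pair with lower values, were at 1.57 CPM or less in both genotypes. The median change of the 10 ligands was -0.23, and -0.31 without DG-10.

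Receptors and Smad proteins, through which the oocyte itself could read such ligands, showed no unadjusted p under 0.05 by edgeR in 10 of 15 receptors and 9 of 12 Smad pathway genes tested. Their median changes were 0.07 and -0.02. Bmpr2, the type II receptor for GDF9 and BMP15, had 83.7 ± 11.1 CPM in Drp1_KO mice and 72.1 ± 9.66 CPM in Drp1_WT mice (log2 0.22, SE 0.13, adjusted p = 0.570 by edgeR). Bmpr1b, a type I receptor, had 167 ± 4.69 CPM in Drp1_KO mice and 161 ± 9.46 CPM in Drp1_WT mice (0.06, SE 0.09). Smad4, the common partner of the pathway, had 39.0 ± 3.17 CPM in Drp1_KO mice and 46.8 ± 6.87 CPM in Drp1_WT mice (-0.26, SE 0.13, adjusted p = 0.523 by edgeR). Among 5 of 8 proteases tested, which cut the ligands' precursors or release them, Pcsk6 had the smallest p, with 9.30 ± 1.25 CPM in Drp1_KO mice and 16.5 ± 5.42 CPM in Drp1_WT mice (-0.82, SE 0.24, adjusted p = 0.471 by edgeR). Furin had 7.30 ± 1.02 CPM in Drp1_KO mice and 9.52 ± 2.95 CPM in Drp1_WT mice (-0.37, SE 0.23).

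Antagonists that bind BMPs or activins outside the cell had the lowest median of the lists with all libraries, but not without DG-10, when it was -0.58 and that of the granulosa and cumulus markers -0.63. Of 16, 8 were tested, 0 passed the adjusted threshold, all 8 changes were negative, beside 6480 of 12812 over all genes, and 2 had an unadjusted p under 0.05, beside 9.69% of all genes. The median was -0.52, beside -0.0032 for all tested genes. Chrdl1 averaged 0.0338 ± 0.0464 CPM in Drp1_KO mice and 1.96 ± 1.83 CPM in Drp1_WT mice (adjusted p = 0.226 by edgeR), and Grem1 0.647 ± 0.124 CPM in Drp1_KO mice and 2.62 ± 1.69 CPM in Drp1_WT mice (-1.98, SE 0.50, adjusted p = 0.426 by edgeR). These are levels near detection, and in single oocytes Grem1 had a count in 22 of 35. Dand5, a more abundant antagonist, had 26.99 ± 4.07 CPM in Drp1_KO mice and 32.6 ± 2.79 CPM in Drp1_WT mice (-0.27, SE 0.13). Grem1 is also a gene of cumulus cells, and most granulosa and cumulus markers had negative changes too: of 11 tested of 14, 8 changes were negative and the median was -0.49, while 1 had an unadjusted p under 0.05, a share near the 9.69% of all genes. Cyp11a1 was the marker under 0.05, at 1.40 ± 0.602 CPM in Drp1_KO mice and 4.63 ± 3.75 CPM in Drp1_WT mice (-1.70, SE 0.55, adjusted p = 0.499 by edgeR). Cyp19a1, the aromatase gene and the most abundant of them, was among the 3 with positive changes. It had 67.4 ± 6.79 CPM in Drp1_KO mice and 57.1 ± 5.33 CPM in Drp1_WT mice (0.24, SE 0.11, adjusted p = 0.517 by edgeR). The part of granulosa and cumulus transcripts in the antagonists' values was not tested.

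Around Fgf8, 4 of 21 other FGF ligands were tested, and 0 had an unadjusted p under 0.05. Fgf7, which epithelial cells read, varied most, with 14.8 ± 13.9 CPM in Drp1_KO mice and 1.92 ± 3.71 CPM in Drp1_WT mice (2.87, SE 1.38, adjusted p = 0.527 by edgeR). Of 17 FGF receptors and feedback regulators, 16 were in the table and 10 were tested. Spry1, a feedback inhibitor of FGF signals, had 40.0 ± 4.26 CPM in Drp1_KO mice and 52.01 ± 9.77 CPM in Drp1_WT mice (-0.38, SE 0.15, unadjusted p = 0.0233, adjusted p = 0.499 by edgeR). Spred2, another inhibitor, went the other way, with 5.38 ± 1.91 CPM in Drp1_KO mice and 3.60 ± 1.11 CPM in Drp1_WT mice (0.58, SE 0.27).

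Other oocyte-secreted and zona proteins gave 9 tested of 12, with 1 higher and 2 lower by unadjusted p under 0.05, beside 9.69% of all genes, and 0 past the adjusted threshold. Nrg1, a growth factor that binds ERBB receptors, had 19.1 ± 2.62 CPM in Drp1_KO mice and 29.4 ± 6.23 CPM in Drp1_WT mice (-0.62, SE 0.17, adjusted p = 0.471 by edgeR). Zp1, a zona pellucida gene, had 773 ± 163 CPM in Drp1_KO mice and 1035 ± 90.6 CPM in Drp1_WT mice (-0.42, SE 0.14, adjusted p = 0.499 by edgeR). Il7, which encodes a cytokine, had 112 ± 25.3 CPM in Drp1_KO mice and 89.5 ± 5.63 CPM in Drp1_WT mice (0.32, SE 0.14), with 320 CPM in DG-10 and at most 139 CPM in the other 35 oocytes. Of the 12 genes by which cumulus cells respond to oocyte factors, 5 passed the filter, and Ptx3 and Tnfaip6, which are switched on when the cumulus expands, had 0 counts in all 36 oocytes.

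The nearest genes with a row in the table ranged widely in level. Uqcrq, a subunit of respiratory complex III, starts 192 bases from Gdf9 on the other strand and had a median of 193 CPM in 17 Drp1_KO oocytes, 31.3 CPM in DG-10 and 218 CPM in 18 Drp1_WT oocytes. Ms4a3 and Gif, which flank the Oosp cluster, had medians of 1.13 and 1.55 CPM in 17 Drp1_KO oocytes, 0 counts in DG-10, and medians of 0.875 and 1.32 CPM in 18 Drp1_WT oocytes. The Oosp cluster was therefore bounded by genes at a level near detection on both sides. Shroom4 beside Bmp15 had 22.8 CPM in Drp1_KO oocytes and 19.8 CPM in Drp1_WT oocytes, Fbxw4 and Npm3 beside Fgf8 had 87.4 and 4.34 CPM in Drp1_KO oocytes and 107 and 4.05 CPM in Drp1_WT oocytes, and none of these neighbours passed the test. Snrnp48 and Bloc1s5 around Bmp6 had 26.8 and 25.8 CPM in Drp1_KO oocytes and 26.3 and 24.7 CPM in Drp1_WT oocytes. Exons of Bmp6 overlap those of Txndc5 on the opposite strand over 224 bases, and 4.55% of its 50-base words occur in that gene, so reads from that stretch cannot be told apart between the 2 genes. Oosp3 shares 1.46% of its words with the pseudogene Gm19224, and the other 5 members share none with another gene.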

How the data were processed

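Single GV-stage oocytes were made into cDNA with the SMARTer Ultra Low Input kit and into libraries with Nextera XT, and read single-end, per the labels' protocols. The authors deposited raw counts per gene and oocyte, unnormalised, with STAR, featureCounts, Picard, Subread 1.5.2 and the build GRCm38 listed in the submitters' processing notes. No source used here gives the treatment of strand, multiple matches and PCR copies, so intervals on counts cover counting error only. Of 21968 gene IDs, 21876 matched GENCODE M21, which gave names, spans and exon lengths, and 3535 genes had 0 counts throughout. Every row carries an Ensembl gene ID.

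Counts were summed per mouse (n = 4 and 5), since oocytes of a mouse are not independent, and tested with edgeR 4.0.16 in R 4.3.3 (TMM scaling, filterByExpr by genotype, robust quasi-likelihood fit) over 12812 genes with Benjamini-Hochberg adjustment at 0.05. The common biological coefficient of variation was 0.214. Alternatives were DESeq2 1.42.0, limma 3.58.1 voom on single oocytes with correlation within a mouse, other scaling and filters, title number sets, libraries that stand apart left out, and each mouse left out. The fits were tested on simulated counts. Correlations used log2(CPM + 1), and 50-base words and motifs were counted with Python 3.11.15. Promoters came from RefSeq.

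The members and gene lists were chosen with earlier results of these data known, and the lists were made by name. The genes named are the 7 members, up to 4 tested genes of each list with the smallest edgeR p, the 3 genes most correlated with each member and the nearest genes on each side. Markers in DG-10 and Ptx3, Tnfaip6, Mfhas1 and Eri1 were named after their values were seen.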

Additional observations from a re-analysis of the deposited data

How the results depend on the processing

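Over 23 alternatives for each of the 7 genes, 161 in all, 0 brought a member past the threshold, the adjusted p ran from 0.293 to 0.999, and 154 kept the sign of the log2 fold change. Bmp6, Fgf8 and Oosp1 kept their sign in all 23. Without DG-10, DN-11 to DN-15 and DN-29, Gdf9 came to 0.018, Bmp15 to 0.033 and Oosp3 to -0.066. Limma-voom on oocytes gave -0.0014 for Oosp2, and its values for Fgf8 (-0.59) and Gdf9 (-0.34) were the farthest from edgeR's. With each mouse left out in turn, the change ran from -0.12 to 0.016 for Bmp15, from -0.082 to 0.32 for Oosp2 and from -0.043 to 0.33 for Oosp3, with the sign changed only without mouse d. The cause was not tested. The count of genes called over the whole table was 2 by edgeR (2 higher, 0 lower), 43 by DESeq2 (17 higher, 26 lower), 9 by limma-voom (7 higher, 2 lower), 4 within title numbers 1 to 15 (3 higher, 1 lower), and 1 to 3 with each mouse left out, with 1 left without mouse a, b, 2 or 3. The differences in ratio between genotypes kept their sign in all settings run, that of Oosp3 over Oosp1 between -0.21 and -0.11. They moved by less than 1 SD between mice, taken with all libraries. For Oosp1 over Oosp2 DG-10 widened that SD: the Drp1_KO SD was 0.29 with DG-10 and 0.14 without. This difference ran from 0.04 without mouse b to 0.26 without mouse c. By the longest transcript in place of all exons, Gdf9 was at 2447 CPM per kb over 9 mice and Fgf8 at 107, against 2161 and 92.4. No paired analysis was possible because mice of Drp1_KO carry letters and those of Drp1_WT carry numbers. A check on the gap of the most extreme value over the range flagged 0 of 20 sets of mouse values (7 genes and 3 ratios in each genotype). With 4 or 5 values in a set such a check can hardly flag any, so it does not show that no mouse stood apart. Depth limited Bmp6 most, with counting error of 6.997% per oocyte without DG-10, and Fgf8 in DG-10, which rests on 1 count. Without DG-10, the CV between mice was above this counting error for each of the 7 genes, at 19.5% against 6.997% for Bmp6. The 4 and 5 mice thus limit the intervals more than depth does, for Bmp6 as well.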
